A study of Mus musculus with 16 samples.

Results

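The cell cycle genes described here are 39 named genes whose products copy DNA or divide the cell. They were taken by symbol from the table of raw read counts, where all 39 were found, and all 39 passed the filter on low counts. The table has 32207 genes, of which 16339 were tested. By role, 16 act in S phase and its onset, 22 in mitosis, and Ccnd1 acts in G1. The genes were listed by function. RNA had been sequenced from brain cells of OF-1 mice, an outbred strain, sorted with magnetic beads for the oligodendrocyte antigen O4 on postnatal day 16. The 4 groups of 4 libraries each were BPA females, control females, BPA males and control males. Pups of the BPA groups were exposed to bisphenol A through their mothers' water, from gestational day 7 and during lactation. The labels give an estimated 40 µg/kg/day and the design text 250 µg/mL of water. Both can hold only if the mothers drank far less than mice usually do, so the dose taken in is uncertain. The mothers were exposed, but litters and batches are not labelled and mice of a group could share a litter. The p-values therefore measure the spread between libraries and could be too small for a comparison of litters.

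Cells enter the cycle when cyclin D with Cdk4 or Cdk6 releases E2F factors from the retinoblastoma protein, which lets them read S phase genes. Origins are then licensed by Cdc6, Cdt1 and the MCM helicase, DNA is copied with the Pcna clamp, and cyclins A and B with Cdk1 drive mitosis. In the oligodendrocyte lineage the precursors, marked by Pdgfra and Cspg4, divide, while cells that form myelin have left the cycle. The O4 antigen is carried by late precursors and by more mature cells, so a sort of this kind can hold both.

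Libraries held from 23603816 to 42575326 counts. Levels are given as CPM, the count of a gene scaled to the size of its library, with trimmed mean of M values scaling. Marker scores are the mean log2 CPM of a list. Markers of the labelled lineage were present: Tnr of precursors averaged 1400 CPM, Sirt2 of committed and newly formed cells averaged 3160 CPM, and no precursor or myelinating marker averaged under 1 CPM. Markers of other brain cells were present too, with Csf1r of microglia at 282 CPM and Slc1a2 of astrocytes at 736 CPM on average. Male BPA 2 stood apart with an astrocyte score of 8.67, against 6.13 to 7.44 in the other 15 libraries, and female BPA 1 had the highest microglia score, 6.91. The expression of Xist matched the labelled sex in 16 of 16 libraries. These are bulk samples, so fewer cells of a type and less RNA per cell cannot be told apart.

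The genes were detected in every library, with from 18 counts (Cdc6, male control 2) to 1292 counts (Ccnd1, female BPA 1). On the authors' scale of normalized counts per kb of median transcript length, Rrm1 was highest with a mean of 1260 and Pcna was next with 1070. That length depends on which transcripts of a gene are annotated, so the order of genes on this scale is uncertain. By CPM, which leaves length out, Ccnd1 was highest with a mean of 28.7, and Rrm1 was next with 27.5. Of the mitosis genes, Mki67 (12.1) was then highest and Ccnb1 (1.24) lowest. Mcm4 followed with 953, Ccnd1 with 555 and Mcm7 with 486. Rrm1 encodes the large subunit of ribonucleotide reductase, which makes the building blocks of DNA. Of the mitosis genes, Top2a had the highest level per kb, 438, and Kif11 the lowest, 31.6. Cdc6 was the lowest of all members with 8.41. Spliced transcripts of Ccnb1 (23.4%), Pcna (19.1%), Mcm7 (18.1%) and Cdc20 (10.4%) shared that percentage of their 50-base words with transcripts of other genes, so reads of these 4 could have been split or lost. For the other members it was 5.25% or less.

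**Figure D1:**
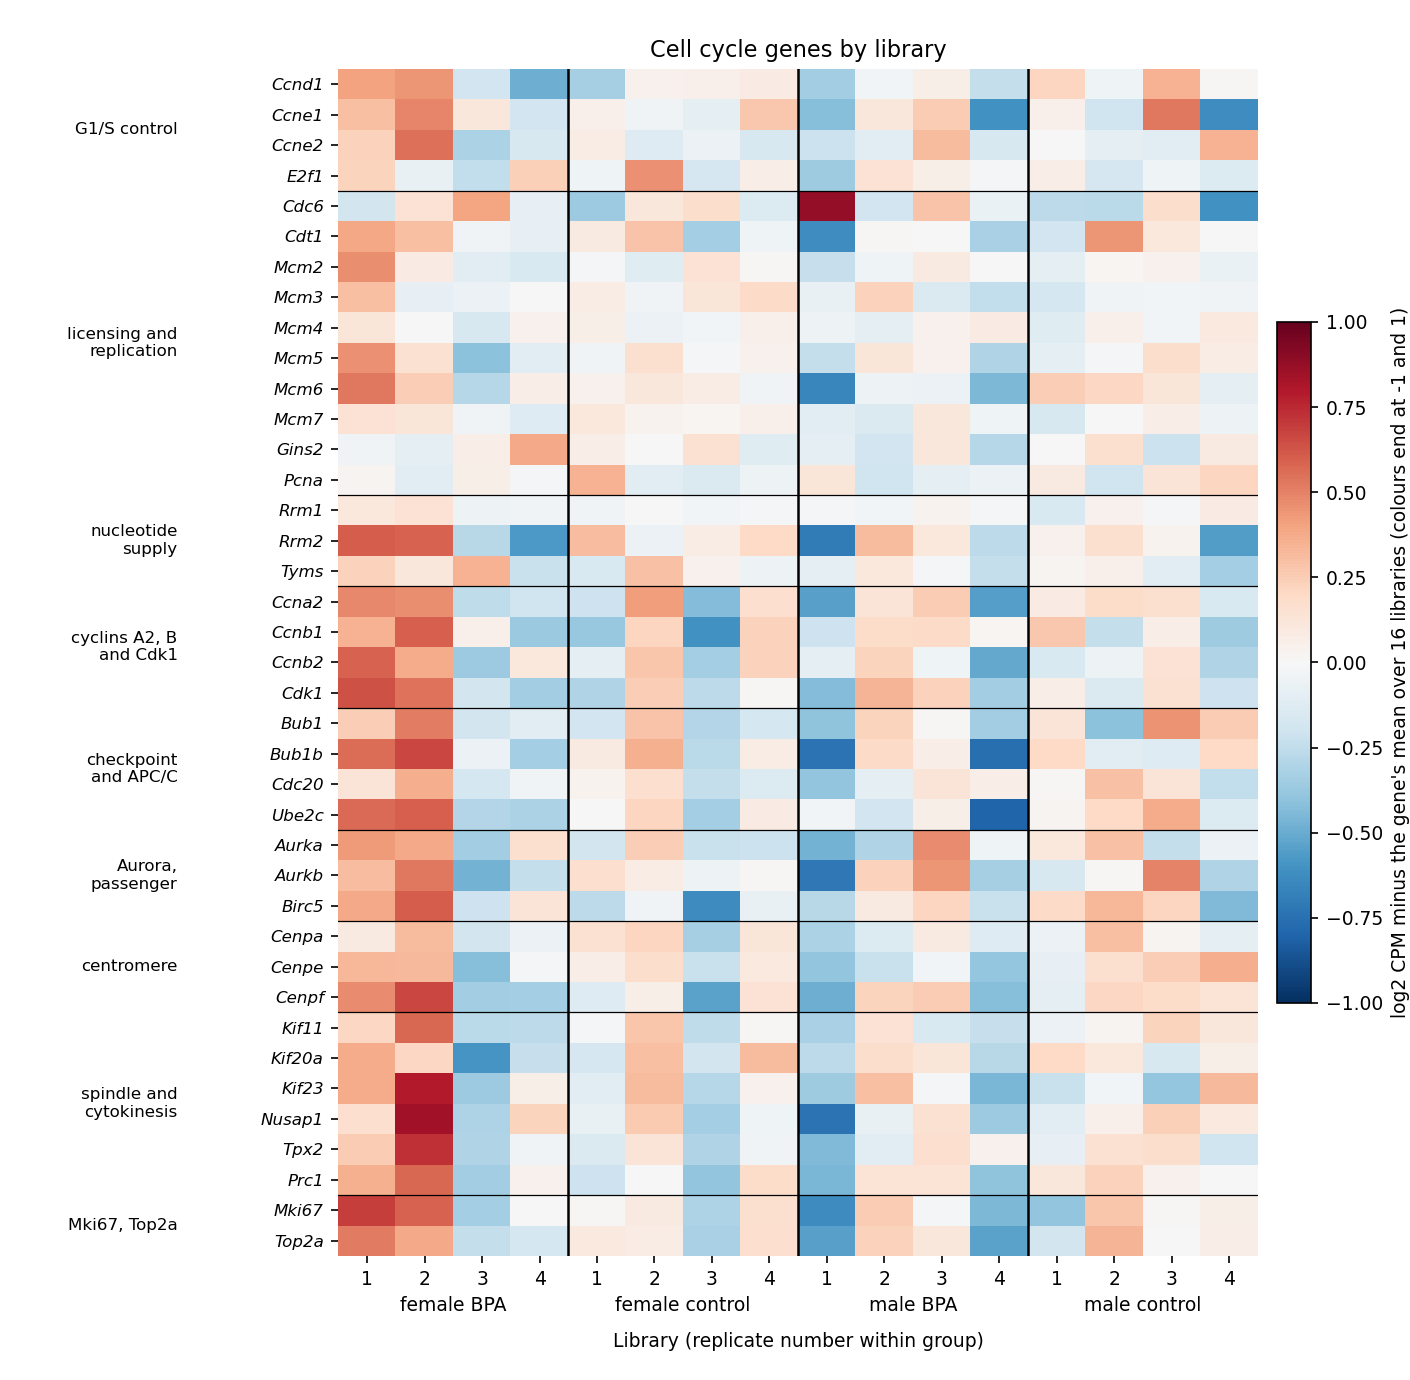
Level of the 39 genes in each of 16 libraries (columns, by group and replicate), as log2 CPM minus the gene's mean over the libraries; red is above and blue below that mean. Female BPA 1 and 2 are red and male BPA 1 and 4 blue over most of the mitosis genes, while Mcm4, Mcm7, Gins2, Pcna and Rrm1 stay pale in most libraries.

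In BPA females against control females, no cell cycle gene was called by limma-voom at an adjusted p under 0.05, where 0% of all tested genes were. In BPA males against control males, no member was called either, where 0.00612% of the tested genes were, which is 1 gene. Over both sexes it was again 0 members, against 0.0184%. By limma-trend the count of members was 0 in each of these 3 comparisons. At an unadjusted p under 0.05, 1 member passed in females (all tested genes, 4.55%), 2 in males (7.96%) and 0 over both sexes (7.69%). In neither sex did the CPM of BPA and control libraries separate for any of the 39 genes, which happened for 3.33% of tested genes in females and 4.45% in males.

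The fitted log2 fold changes (BPA over control) leaned in opposite directions in the sexes without passing the test. In females 29 of 39 were above 0 with a median of 0.12, where 50.6% of all tested genes were above 0 with a median of 0.002. In males 6 of 39 were above 0 with a median of -0.12, where 52.5% of all tested genes were, with a median of 0.009. The lean lay mostly with the mitosis genes, of which 19 of 22 were above 0 in females (median 0.19) and 1 of 22 in males (median -0.16). The S phase genes were near 0 in both, with 9 of 16 above 0 in females (median 0.05) and 5 of 16 in males (median -0.03). These genes are not independent of each other, and the medians rest on few libraries. The mitosis median in females was 0.05 without female BPA 2, 0.08 without female BPA 1, 0.09 without female control 3 and 0.36 without female BPA 3. In males it was -0.07 without male BPA 1, -0.10 without male control 2 and -0.27 without male BPA 2. Leaving out 1 library at a time, the S phase median ran from -0.04 (without female BPA 1) to 0.10 (without female BPA 4) in females and from -0.08 (without male BPA 2) to 0.01 (without male BPA 1) in males.

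**Figure D2:**
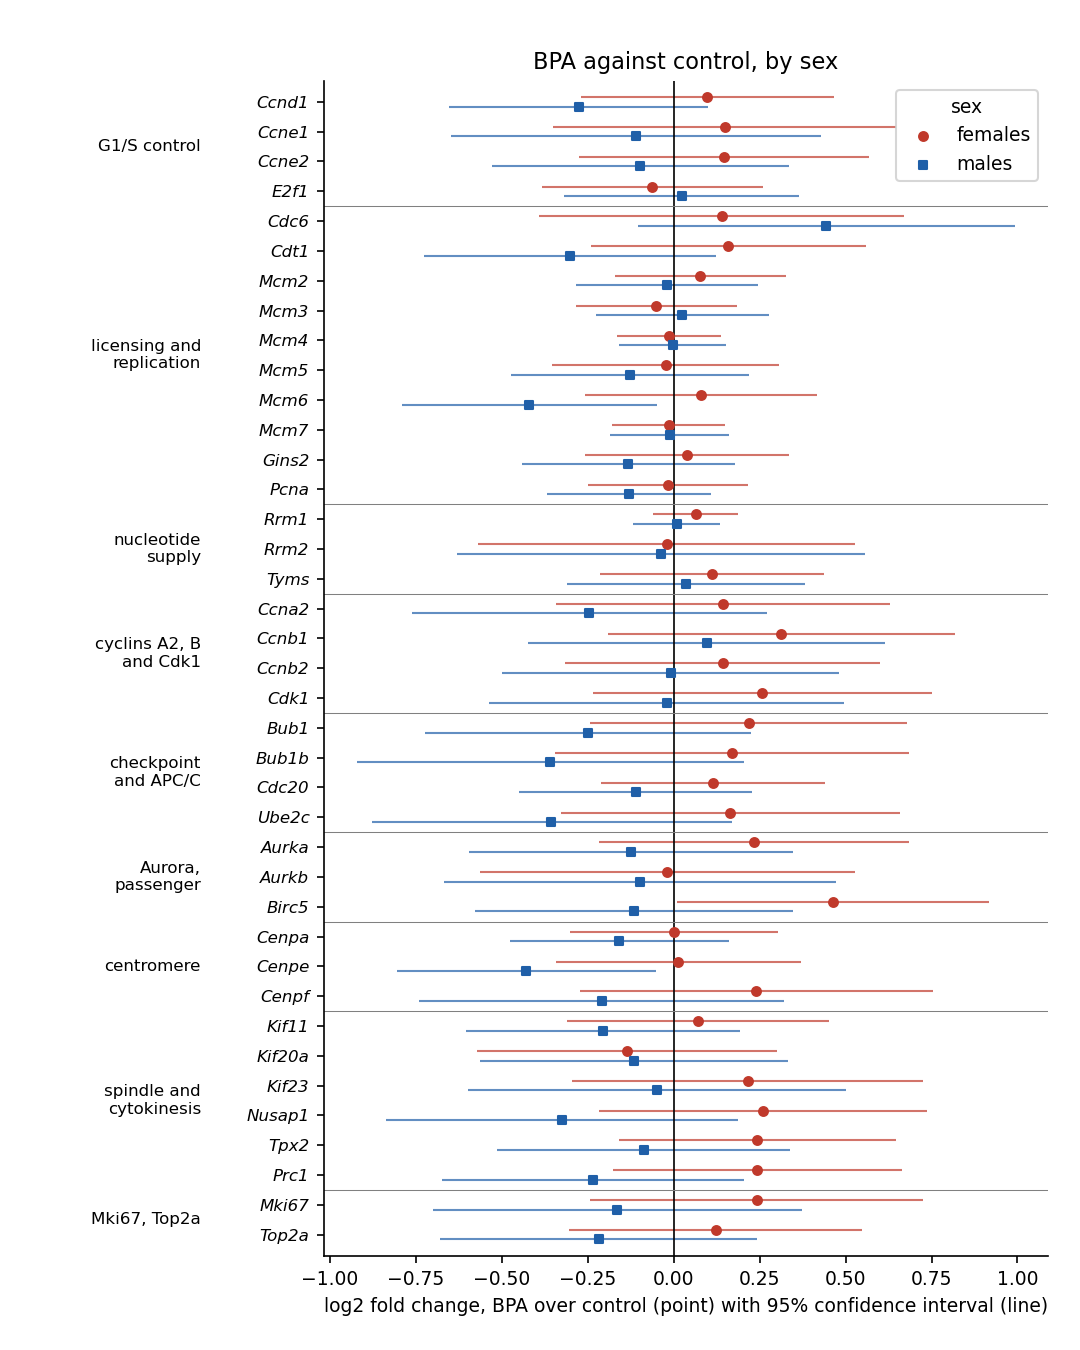
Fitted log2 fold change, BPA over control, of each of the 39 genes in females (red circles) and males (blue squares), with 95% confidence intervals from limma-voom on 4 libraries a group. Most female points lie right of most male points among the mitosis genes, and nearly all intervals cross 0, the exceptions being Birc5 in females and Mcm6 and Cenpe in males.

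Among the genes of G1 and the start of S phase, Ccnd1, which encodes cyclin D1, had 37.4, 38.4, 24.7 and 20.1 CPM in BPA females, against 22.5, 29.1, 29.3 and 29.9 CPM in control females. It measured 22.2, 27.8, 29.4 and 23.99 CPM in BPA males, against 32.8, 27.4, 35.9 and 28.4 CPM in control males. In females BPA libraries 1 and 2 were above all controls and library 4 below them, and in males the groups overlapped. Its log2 fold change was 0.10 ± 0.17 (SE) in females and -0.28 ± 0.18 in males. The value in females was -0.021 without female BPA 1 and also without female BPA 2, 0.011 without female control 1, 0.205 without female BPA 3 and 0.252 without female BPA 4. With the precursor score as a covariate it was -0.093 in females and 0.016 in males. E2f1, a factor that switches on S phase genes, gave 6.97, 5.65, 5.02 and 7.03 CPM in BPA females, against 5.78, 8.199, 5.32 and 6.25 CPM in control females. E2f1 stood at 4.65, 6.597, 6.199 and 5.92 CPM in BPA males, against 6.26, 5.32, 5.78 and 5.43 CPM in control males. Control females held its highest value and BPA males its lowest, inside overlapping groups. Ccne1 and Ccne2, the cyclins E that start S phase with Cdk2, ranged from 0.915 to 2.03 CPM and from 0.949 to 1.73 CPM.

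Cdc6 loads the helicase onto origins. It was at 0.752, 0.942, 1.12 and 0.805 CPM in BPA females, against 0.663, 0.923, 0.964 and 0.778 CPM in control females. Cdc6 was at 1.57, 0.747, 1.04 and 0.814 CPM in BPA males, against 0.714, 0.7096, 0.963 and 0.561 CPM in control males. Male BPA 1 was the highest of all 16 libraries, with 54 counts. The log2 fold change of Cdc6 in males was 0.44 ± 0.26 (SE), with limma-voom adjusted p = 0.727, and over both sexes it was 0.29 ± 0.18, with adjusted p = 0.774. Without male BPA 1 these were 0.23 in males and 0.19 over both sexes. Cdt1, its partner in licensing, ran from 1.28 CPM in male BPA 1 to 2.68 CPM in male control 2.

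Mcm2 to Mcm7 form the ring of the replicative helicase, and they did not vary alike. Mcm6 had 10.8, 8.88, 6.14 and 7.84 CPM in BPA females, against 7.71, 8.12, 7.91 and 7.31 CPM in control females. Mcm6 had 4.77, 7.24, 7.204 and 5.48 CPM in BPA males, against 8.92, 8.67, 8.14 and 6.995 CPM in control males. Female BPA 1 was the highest and male BPA 1 the lowest library, and 3 of 4 control males were above all BPA males. The log2 fold change of Mcm6 in males was -0.42 ± 0.17 (SE, 95% interval -0.79 to -0.05), the second smallest p of the members in that sex, unadjusted p = 0.0288 and limma-voom adjusted p = 0.557. In females it was 0.08 ± 0.16. Mcm3 gave 8.76, 6.75, 6.84 and 7.12 CPM in BPA females, against 7.501, 6.96, 7.76 and 8.13 CPM in control females. Mcm3 had 6.77, 8.36, 6.43 and 5.996 CPM in BPA males, against 6.31, 6.94, 6.97 and 6.94 CPM in control males. The groups of Mcm3 overlapped in both sexes.

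Mcm4 stayed within a narrow band, with 19.8, 18.2, 16.3 and 18.9 CPM in BPA females, against 18.98, 17.5, 17.9 and 18.9 CPM in control females. Mcm4 gave 17.6, 17.2, 18.8 and 19.3 CPM in BPA males, against 16.8, 18.9, 17.9 and 19.6 CPM in control males. Its highest library was 1.21-fold above its lowest, the smallest such ratio of the 39 genes. Mcm7 had 12.7, 12.5, 11.2 and 10.5 CPM in BPA females, against 12.3, 11.8, 11.7 and 11.9 CPM in control females. Mcm7 had 10.6, 10.4, 12.4 and 11.2 CPM in BPA males, against 10.3, 11.6, 12.02 and 11.1 CPM in control males, again with no group apart. Mcm2 ranged from 7.004 to 11.3 CPM and Mcm5 from 4.39 to 8.01 CPM, and both were highest in female BPA 1. Gins2, part of the GINS complex that activates the helicase, ran from 1.68 to 2.67 CPM.

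Pcna, the clamp that holds the polymerase on DNA, had 26.02, 23.5, 26.5 and 25.2 CPM in BPA females, against 32.5, 23.5, 23.1 and 24.6 CPM in control females. It had 27.7, 22.2, 23.9 and 24.5 CPM in BPA males, against 27.2, 22.1, 27.9 and 29.7 CPM in control males. Female control 1 was the highest library and the groups overlapped. Rrm1, which also serves DNA repair outside S phase, gave 29.5, 30.4, 26.6 and 26.9 CPM in BPA females, against 26.8, 27.4, 27 and 27.1 CPM in control females. Rrm1 gave 27.1, 26.98, 28.2 and 27.3 CPM in BPA males, against 24.7, 28.3, 27.2 and 29.1 CPM in control males. Rrm1 thus spanned 1.23-fold from its lowest to its highest library. Its S phase partner Rrm2, the small subunit of the same enzyme, had 4.89, 4.83, 2.65 and 2.16 CPM in BPA females, against 3.98, 3.08, 3.39 and 3.701 CPM in control females. Rrm2 gave 1.98, 4.01, 3.45 and 2.69 CPM in BPA males, against 3.32, 3.59, 3.29 and 2.18 CPM in control males. The small subunit spanned 2.47-fold, with female BPA 1 and 2 highest and male BPA 1 lowest. Tyms, which makes thymidylate, lay between 1.45 and 2.32 CPM.

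Of the cyclins and kinase that drive G2 and mitosis, Ccna2 (cyclin A2) had 9.08, 9.03, 5.47 and 5.68 CPM in BPA females, against 5.65, 8.73, 4.82 and 7.33 CPM in control females. It had 4.47, 7.14, 7.77 and 4.45 CPM in BPA males, against 6.92, 7.41, 7.31 and 5.87 CPM in control males. BPA libraries held both the highest values, in female BPA 1 and 2, and the lowest, in male BPA 1 and 4. Ccnb1, cyclin B1, gave 1.53, 1.82, 1.25 and 0.932 CPM in BPA females, against 0.928, 1.397, 0.791 and 1.41 CPM in control females. Ccnb1 stood at 1.05, 1.37, 1.37 and 1.22 CPM in BPA males, against 1.46, 1.02, 1.26 and 0.944 CPM in control males. The log2 fold change of Ccnb1 in females was 0.31 ± 0.24 (SE), with limma-voom adjusted p = 0.999. It was 0.16 without female control 3 and 0.185 without female BPA 2. Cdk1, the kinase of mitosis, had 4.94, 4.62, 2.796 and 2.499 CPM in BPA females, against 2.57, 3.77, 2.65 and 3.21 CPM in control females. Cdk1 had 2.35, 4.01, 3.72 and 2.496 CPM in BPA males, against 3.32, 2.88, 3.52 and 2.75 CPM in control males. Female BPA 1 and 2 were above all other libraries, and female BPA 3 and 4 were within the range of their controls or below it. Ccnb2 (cyclin B2) ranged from 1.60 to 3.44 CPM.

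The spindle checkpoint holds cells in mitosis until the anaphase-promoting complex is released, and 4 members belong there. Bub1b, a checkpoint kinase-like protein, had 3.64, 3.92, 2.37 and 1.95 CPM in BPA females, against 2.62, 3.16, 2.05 and 2.59 CPM in control females. It had 1.48, 2.81, 2.58 and 1.47 CPM in BPA males, against 2.83, 2.29, 2.26 and 2.83 CPM in control males. Male BPA 1 and 4 had the lowest values of all 16 libraries. Cdc20, which activates the complex, gave 4.94, 5.805, 3.99 and 4.41 CPM in BPA females, against 4.64, 5.06, 3.83 and 4.102 CPM in control females. Cdc20 measured 3.43, 4.23, 4.93 and 4.72 CPM in BPA males, against 4.56, 5.52, 4.95 and 3.81 CPM in control males. For Cdc20 the BPA and control groups overlapped in both sexes. Ube2c, the ubiquitin-conjugating enzyme of that complex, had 5.38, 5.501, 2.97 and 2.92 CPM in BPA females, against 3.63, 4.22, 2.87 and 3.84 CPM in control females. Ube2c had 3.58, 3.19, 3.79 and 2.09 CPM in BPA males, against 3.71, 4.18, 4.72 and 3.31 CPM in control males. Male BPA 4 was lowest, and female BPA 1 and 2 were highest. Bub1, the kinase that starts checkpoint signalling, lay between 1.301 and 2.46 CPM.

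Aurka, the Aurora kinase of spindle poles, had 3.67, 3.56, 2.15 and 3.05 CPM in BPA females, against 2.41, 3.24, 2.35 and 2.36 CPM in control females. Aurka had 1.98, 2.22, 3.79 and 2.66 CPM in BPA males, against 2.94, 3.35, 2.33 and 2.63 CPM in control males. Male BPA 3 was highest and male BPA 1 lowest. Birc5 (survivin), a partner of Aurora B in the chromosomal passenger complex, gave 3.38, 3.95, 2.25 and 2.84 CPM in BPA females, against 2.17, 2.53, 1.68 and 2.48 CPM in control females. Birc5 gave 2.15, 2.76, 3.02 and 2.23 CPM in BPA males, against 2.96, 3.27, 3.02 and 1.92 CPM in control males. In females 3 of 4 BPA libraries were above all controls, and BPA library 3 was within the control range. This was the member with the smallest p in females, with a log2 fold change of 0.46 ± 0.21 (SE, 95% interval 0.01 to 0.92), unadjusted p = 0.0456 and limma-voom adjusted p = 0.999. Aurkb itself lay between 1.31 and 3.10 CPM.

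The centromere genes include Cenpa, the histone variant that marks centromeres, with 6.74, 7.902, 5.57 and 6.1 CPM in BPA females, against 7.05, 7.36, 5.04 and 6.91 CPM in control females. It had 5.09, 5.75, 6.74 and 5.81 CPM in BPA males, against 6.09, 7.805, 6.44 and 5.93 CPM in control males. Neither sex showed separate groups. Cenpe, a kinesin that aligns chromosomes, had 5.38, 5.35, 3.17 and 4.24 CPM in BPA females, against 4.48, 4.82, 3.66 and 4.57 CPM in control females. Cenpe had 3.25, 3.66, 4.19 and 3.26 CPM in BPA males, against 4.04, 4.77, 5.05 and 5.49 CPM in control males. All BPA males but library 3 were below all control males. Cenpe had the smallest p of the members in males, with a log2 fold change of -0.43 ± 0.18 (SE, 95% interval -0.81 to -0.05), unadjusted p = 0.028 and limma-voom adjusted p = 0.553. Over both sexes it was -0.21 ± 0.12, with limma-voom adjusted p = 0.744 (-0.10 without female BPA 3). Cenpf, a kinetochore protein, gave 7.14, 8.14, 4.04 and 4.07 CPM in BPA females, against 4.69, 5.35, 3.54 and 5.68 CPM in control females. Cenpf had 3.66, 5.999, 6.13 and 3.83 CPM in BPA males, against 4.83, 5.91, 5.84 and 5.64 CPM in control males. For Cenpf, female BPA 1 and 2 were again highest, and female control 3 and male BPA 1 were lowest.

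Tpx2, which targets Aurora A to the spindle, had 9.14, 12.7, 6.22 and 7.46 CPM in BPA females, against 6.92, 8.38, 6.21 and 7.47 CPM in control females. It measured 5.64, 7.09, 8.61 and 7.896 CPM in BPA males, against 7.22, 8.52, 8.63 and 6.67 CPM in control males. Female BPA 2 stood highest of all. The log2 fold change of Tpx2 in females was 0.24 ± 0.19 (SE), with limma-voom adjusted p = 0.999 (0.06 without female BPA 2 and 0.44 without female BPA 3). Prc1, which bundles the microtubules of the dividing cell's midzone, gave 6.27, 7.29, 3.85 and 5.04 CPM in BPA females, against 4.24, 4.903, 3.73 and 5.56 CPM in control females. Prc1 had 3.58, 5.402, 5.39 and 3.72 CPM in BPA males, against 5.298, 5.76, 5.05 and 4.899 CPM in control males. Male BPA 1 and 4 were the lowest males. Nusap1, a spindle protein, had 3.38, 5.38, 2.42 and 3.52 CPM in BPA females, against 2.86, 3.61, 2.37 and 2.92 CPM in control females. Nusap1 had 1.802, 2.86, 3.35 and 2.33 CPM in BPA males, against 2.8, 3.11, 3.55 and 3.22 CPM in control males. It spanned 2.99-fold, the widest range of the 39 genes, from male BPA 1 to female BPA 2. The motor proteins Kif11, Kif20a and Kif23, which push spindle poles apart and complete cytokinesis, ranged from 2.88 to 5.38, from 1.92 to 3.73 and from 1.87 to 4.44 CPM.

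Mki67, whose protein coats mitotic chromosomes and is the usual label of dividing cells, had 18.9, 17.6, 9.26 and 11.7 CPM in BPA females, against 11.8, 12.4, 9.47 and 13.1 CPM in control females. Mki67 had 7.58, 13.97, 11.6 and 8.57 CPM in BPA males, against 8.89, 14.2, 11.8 and 12.2 CPM in control males. BPA females split into 2 libraries above and 2 libraries around or below the controls, and BPA males ran from the lowest value of all to one near the highest control male. The log2 fold change of Mki67 was 0.24 ± 0.23 (SE, 95% interval -0.24 to 0.73) in females and -0.16 ± 0.25 (-0.70 to 0.37) in males. In females it was 0.08 without female BPA 1, 0.13 without female BPA 2 and 0.49 without female BPA 3. In males it was -0.02 without male BPA 1, -0.07 without male BPA 4 and -0.34 without male BPA 2. Top2a, the topoisomerase that untangles sister chromatids, gave 14.4, 13.1, 8.51 and 8.896 CPM in BPA females, against 10.8, 10.6, 8.04 and 11.3 CPM in control females. Top2a gave 6.89, 11.8, 10.9 and 6.95 CPM in BPA males, against 8.87, 12.7, 10.1 and 10.5 CPM in control males. It repeated the order of Mki67 at the extremes, with female BPA 1 highest and male BPA 1 lowest.

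As a set, the mitosis genes spread more widely among BPA libraries than among controls. The mean log2 CPM of the 22 mitosis genes was 2.04 ± 0.38 in BPA females and 1.87 ± 0.22 in control females (SD, n = 4 each). It was 1.78 ± 0.28 in BPA males and 1.95 ± 0.07 in control males (SD, n = 4 each). For the 16 S phase genes it was 2.35 ± 0.15 in BPA females, 2.31 ± 0.03 in control females, 2.21 ± 0.13 in BPA males and 2.27 ± 0.06 in control males (SD, n = 4 each). Female BPA 2 had the highest value of 17 members and female BPA 1 of 13, so the exposed females held most maxima. Male BPA 1 had the lowest value of 15 members and male BPA 4 of 7. Of all tested genes, 7.79% were highest in female BPA 2 and 8.51% in female BPA 1, while 7.9% were lowest in male BPA 1 and 8.47% in male BPA 4. Over all tested genes, male BPA 2 held the highest value of 18% and the lowest of 12.6%. No control library held more than 6.16% of the highest or 6.62% of the lowest values. The largest shares over all tested genes were thus in male BPA 2, which held 0 highest and 0 lowest values of the 39 members. The counts of member extremes given for female BPA 1 and 2 and male BPA 1 and 4 were larger shares of the 39 members. Over all tested genes the matching shares of these libraries were only 7.79% to 8.51%. The difference in spread was not tested.

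**Figure D3:**
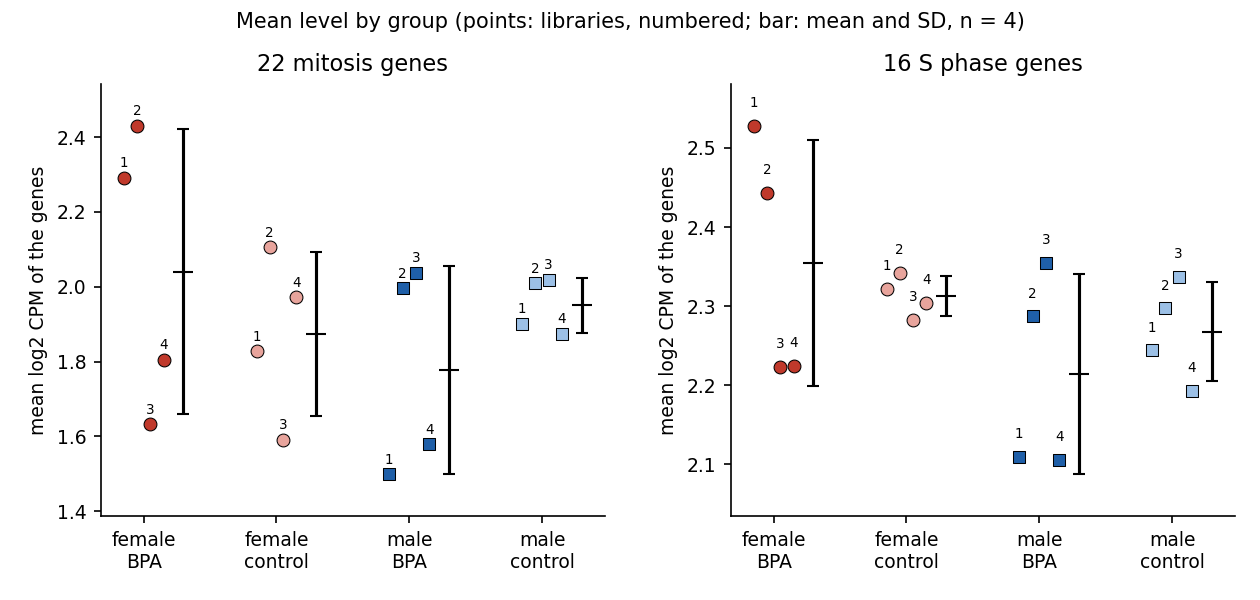
Mean log2 CPM of the 22 mitosis genes (left) and 16 S phase genes (right) in each library, with the mean and SD of each group (n = 4). Within BPA females libraries 1 and 2 lie above 3 and 4, and within BPA males 2 and 3 lie above 1 and 4, so that each exposed group overlaps its controls.

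Whether the BPA effect differed between the sexes was tested as the female effect minus the male effect. By limma-voom 0 members were called, as were 0% of all tested genes, and 0 members had an unadjusted p under 0.05 (all tested genes, 4.72%). By limma-trend it was 0 called and 1 member under an unadjusted 0.05. The difference was above 0 in 21 of 22 mitosis genes with a median of 0.35, and in 11 of 16 S phase genes with a median of 0.09, where all tested genes had a median of -0.02. Mcm6 had the smallest p, with a difference of 0.50 ± 0.24 (SE), unadjusted p = 0.0509 and limma-voom adjusted p = 0.999. Birc5 came next with 0.58 ± 0.30, then Cenpe with 0.44 ± 0.24. Ccnd1 had 0.38 ± 0.25 and Mki67 0.41 ± 0.34. Leaving out female BPA 1 gave 0.24 for Mki67, and leaving out female BPA 3 gave 0.65. The mean precursor marker score was also higher under BPA in females and lower in males. It was 6.79 ± 0.36 in BPA females and 6.63 ± 0.13 in control females (SD, n = 4 each). In males it was 6.58 ± 0.13 under BPA and 6.85 ± 0.17 in controls (SD, n = 4 each). The groups overlapped in both sexes. Among BPA females the score ran from 6.39 in library 4, below all control females, to 7.25 in library 2. The effect of BPA on this score was not tested. With that score as a covariate the median difference of the mitosis genes was 0.053, that of Mki67 was 0.045 and that of Ccnd1 was -0.11. The mitosis median under BPA was then 0.062 in females and 0.012 in males. Without female BPA 3 and with no covariate, the median difference was 0.54.

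Between the sexes, females against males, no member was called among the controls (0.0551% of tested genes called) or among the BPA mice (0.049%). At an unadjusted p under 0.05 the members were 0 among controls (all tested genes, 2.91%) and 1 among BPA mice (6.45%), and limma-trend gave 0 members called in both. The 1 member was Mcm6, with a log2 fold change (female over male) of 0.43 ± 0.17 (SE) and limma-voom adjusted p = 0.756 among BPA mice. Bub1b followed with 0.54 ± 0.26 and Nusap1 with 0.47 ± 0.23 (0.26 without female BPA 2). Among BPA mice 36 of 39 members were above 0 with a median of 0.23, where 48.5% of all tested genes were, with a median of -0.005. Among controls 18 of 39 were above 0 with a median of -0.03, where 50.4% of all tested genes were, with a median of 0.001. Among BPA mice the mitosis median was 0.25, but 0.14 once female BPA 2 was left out and 0.44 once female BPA 3 was. In controls the smallest p were those of Mcm3, at 0.17 ± 0.11, Birc5, at -0.31 ± 0.22, and Mcm7, at 0.09 ± 0.08. Birc5 was at -0.19 without female control 3 and -0.49 without male control 4, and Mcm7 was at 0.04 without male control 1. These contrasts share their libraries with the BPA comparisons above and are no separate evidence.

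With group means taken out, the mitosis genes varied together from library to library, and only part of the S phase genes varied with them. All 231 pairs of mitosis genes correlated positively over the 16 libraries, with a median Pearson r of 0.71 and a range from 0.26 to 0.96. Pairs within S phase had a median r of 0.18, and 80 of 120 were positive. Between S phase and mitosis the median was 0.44, with 279 of 352 positive. Against the mean of the other mitosis genes, all 22 had an r above 0.5, as did 9 of 16 S phase genes and Ccnd1 (0.73), where 12.8% of tested genes in the same range of CPM did. Cenpf (0.96), Ccna2 (0.95) and Prc1 (0.94) followed that mean most closely. Of the S phase genes, Mcm5 (0.83), Cdt1 (0.81), Mcm6 (0.77) and Rrm2 (0.76) followed it, while Pcna (-0.34), Gins2 (-0.31) and Cdc6 (-0.28) did not. The points are libraries that share depth and cell makeup, so these r values describe these libraries.

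How far each gene varied between libraries of a group differed as well. The coefficient of variation (CV) within groups beyond counting error had a median of 20.1% in mitosis genes and 11.2% in S phase genes, against 13.3% in tested genes of the same range of CPM. It was highest for Rrm2 (26%), Mki67 (24.8%) and Cenpf (24.7%). It was lowest for Gins2 (1.11%), Rrm1 (3.81%), Tyms (4.35%), Mcm4 (4.74%) and Mcm7 (4.75%). For Gins2 and Tyms the whole CV, 12% and 13.4%, was close to counting error alone, 12% and 12.7%. Their rank is therefore uncertain. Of the S phase genes with a mean above 3 CPM, the reductase subunits thus held both ends of the range, Rrm2 the most variable and Rrm1 the least.

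**Figure D4:**
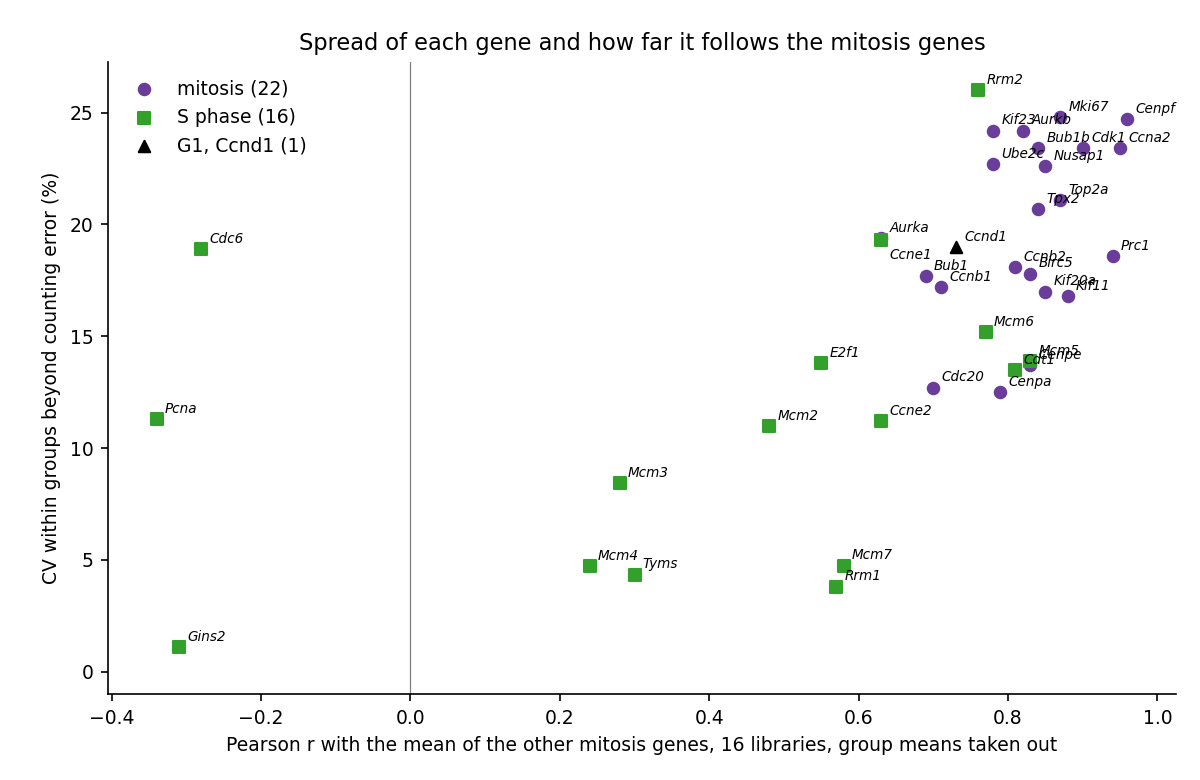
For each of the 39 genes, the Pearson r with the mean of the (other) mitosis genes over 16 libraries with group means taken out (horizontal) and the CV within groups beyond counting error in percent (vertical). Mitosis genes (purple) gather at high r and CVs of 12.5% to 24.8%, while S phase genes (green) spread from -0.34 to 0.83, with Rrm1, Mcm4, Mcm7, Tyms and Gins2 under 5%.

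The promoters of these genes carry known words for cell cycle control. The cell cycle genes homology region (CHR, TTTGAA) and the CCAAT box are typical of genes read in G2 and mitosis, and E2F sites (TTTCCCGC, TTTCGCGC, TTTGCCGC or TTTGGCGC) of genes read at the start of S phase. RefSeq promoters of build GRCm38.p6, 250 bases before to 50 after the start, were at hand for 31 of 39 members and were searched on both strands for exact matches. A CHR word was in 13 of 18 mitosis genes and 1 of 13 S phase genes, against 20.2% of all 27025 genes with a promoter. A CCAAT word was in 16 of 18 mitosis genes and 8 of 13 S phase genes, against 41.1% of all genes. An E2F word was in 1 of 18 mitosis genes, Cdk1, and in 6 of 13 S phase genes (Cdc6, Cdt1, Mcm3, Mcm5, Mcm6 and Mcm7), against 2.6%. Of those 6, Mcm5, Cdt1, Mcm6 and Mcm7 (0.58) had an r above 0.5 with the mitosis mean, while Mcm3 (0.28) and Cdc6 (-0.28) did not. A match is a match of letters and shows no binding.

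Shown first, as chosen after the values were seen, are the promoters of the 3 mitosis genes with the highest r to the mitosis mean among those with an entry, with CHR, CCAAT and E2F words in capitals (sequences 5′ to 3′ on the gene's strand; CCAAT reads ATTGG on the other strand).
Cenpf (chr1:189688037-189688336, minus strand): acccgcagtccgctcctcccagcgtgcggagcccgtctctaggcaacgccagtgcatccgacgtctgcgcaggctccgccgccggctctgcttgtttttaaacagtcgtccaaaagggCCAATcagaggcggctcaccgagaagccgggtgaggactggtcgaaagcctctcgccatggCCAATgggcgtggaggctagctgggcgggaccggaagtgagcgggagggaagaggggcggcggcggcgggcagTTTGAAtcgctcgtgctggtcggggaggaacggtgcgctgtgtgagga
Prc1 (chr7:80294201-80294500, plus strand): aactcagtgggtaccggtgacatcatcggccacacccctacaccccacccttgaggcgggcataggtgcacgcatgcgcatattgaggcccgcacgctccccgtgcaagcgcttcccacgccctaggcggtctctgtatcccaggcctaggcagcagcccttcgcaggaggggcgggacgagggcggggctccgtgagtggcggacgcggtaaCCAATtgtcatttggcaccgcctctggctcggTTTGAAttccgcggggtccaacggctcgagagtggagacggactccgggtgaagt
Cdk1 (chr10:69352863-69353162, minus strand): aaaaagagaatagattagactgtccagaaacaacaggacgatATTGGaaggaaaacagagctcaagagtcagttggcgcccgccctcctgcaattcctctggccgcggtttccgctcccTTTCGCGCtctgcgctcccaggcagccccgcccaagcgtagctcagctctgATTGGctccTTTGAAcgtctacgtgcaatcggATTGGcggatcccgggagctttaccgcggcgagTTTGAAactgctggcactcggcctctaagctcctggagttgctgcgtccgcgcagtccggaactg
Cenpf and Prc1 have 1 CHR word each and Cdk1 has 2, and in each window CCAAT words stand before the last of them. Cdk1 also has 1 E2F word.

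Next, chosen likewise, are S phase promoters of the genes with an entry that followed the mitosis mean most closely, Mcm5 and Cdt1, and least closely, Pcna and Cdc6, with the same words in capitals.
Mcm5 (chr8:75109259-75109558, plus strand): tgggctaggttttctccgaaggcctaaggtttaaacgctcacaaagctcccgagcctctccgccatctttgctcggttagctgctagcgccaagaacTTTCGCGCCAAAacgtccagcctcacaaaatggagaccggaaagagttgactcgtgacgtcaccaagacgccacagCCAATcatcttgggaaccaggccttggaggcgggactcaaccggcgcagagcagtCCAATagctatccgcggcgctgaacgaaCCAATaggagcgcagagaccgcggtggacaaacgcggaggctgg
Cdt1 (chr8:122567765-122568064, plus strand): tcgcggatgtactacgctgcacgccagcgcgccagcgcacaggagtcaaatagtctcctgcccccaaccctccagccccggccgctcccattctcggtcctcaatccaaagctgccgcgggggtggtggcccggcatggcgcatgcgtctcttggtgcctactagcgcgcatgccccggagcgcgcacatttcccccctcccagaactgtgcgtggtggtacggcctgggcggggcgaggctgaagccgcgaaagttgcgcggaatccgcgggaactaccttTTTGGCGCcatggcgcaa
Pcna (chr2:132253131-132253430, minus strand): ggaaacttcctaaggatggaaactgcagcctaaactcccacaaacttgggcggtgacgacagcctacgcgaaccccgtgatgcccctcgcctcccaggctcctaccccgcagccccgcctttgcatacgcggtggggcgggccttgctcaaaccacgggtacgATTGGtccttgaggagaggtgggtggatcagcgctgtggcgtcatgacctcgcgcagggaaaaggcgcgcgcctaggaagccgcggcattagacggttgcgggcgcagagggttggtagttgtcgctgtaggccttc
Cdc6 (chr11:98907901-98908200, plus strand): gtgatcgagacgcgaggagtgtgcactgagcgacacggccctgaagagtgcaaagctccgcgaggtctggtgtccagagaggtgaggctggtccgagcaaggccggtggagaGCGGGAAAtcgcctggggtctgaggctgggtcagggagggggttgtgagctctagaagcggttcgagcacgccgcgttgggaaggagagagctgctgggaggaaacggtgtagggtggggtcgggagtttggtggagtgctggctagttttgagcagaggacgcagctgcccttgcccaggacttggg
None of these 4 windows has a CHR word. Mcm5 has 2 E2F words that overlap, 1 on each strand, and 3 CCAAT words. Cdt1 has 1 E2F word, Cdc6 has 1 on the other strand, and the Pcna window has 1 CCAAT word, on the other strand, and no E2F word.

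The link to precursor markers was tested as the slope of each gene on the score of 17 precursor markers, with group means in the fit, per SD of the score. Ccnd1 rose with the score, by 0.214 ± 0.035 log2 units (SE), with limma-voom adjusted p = 0.00975. It was the only member called, where 1.16% of tested genes were, 1.1% with a positive slope and 0.0612% with a negative slope. Those genes include 10 of the 17 markers. They also include 3 of 13 committed and newly formed markers and 1 of 10 neuron markers, all with a positive slope. No myelinating, microglia, astrocyte or endothelial marker was called on this score. The part of other cells in the slope of Ccnd1 was not tested. Pdgfra, the receptor that drives precursor division, had 154, 233, 117 and 102 CPM in BPA females, against 86.6, 125, 129 and 124 CPM in control females. In males Pdgfra had 106, 106, 140 and 136 CPM under BPA, against 183, 132, 211 and 138 CPM in controls. Cspg4, the NG2 proteoglycan of precursors, ran from 45.6 to 101 CPM in BPA females, 44.6 to 67.4 CPM in control females, 57 to 71.1 CPM in BPA males and 63.5 to 86.6 CPM in control males. The libraries richest in Pdgfra, female BPA 2 and male control 3, were also the highest of their groups for Ccnd1. The call for Ccnd1 held with Pdgfra alone as the score and without male BPA 2 and female BPA 1. It was lost without female BPA 2 and without female BPA 4, the libraries with the highest and lowest scores, 7.25 and 6.39. The call was also lost with the replicate number added to the fit, where the slope was 0.216. Cdk4, the kinase partner of cyclin D1 and no member of the 39, had a slope of 0.107 ± 0.024 (SE) with limma-voom adjusted p = 0.0452, but the call was kept only without male BPA 2 or without male BPA 3 among the 16 fits that leave out 1 library.

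The fitted slopes of the mitosis genes were mostly steeper than those of the S phase genes, a difference that was not tested. The slope was above 0 in 22 of 22 mitosis genes with a median of 0.16 and in 12 of 16 S phase genes with a median of 0.04, while all tested genes had a median of 0.003. At an unadjusted p under 0.05, 8 mitosis genes and 3 S phase genes passed, 12 of 39 members in all with Ccnd1, against 11.8% of tested genes. Rrm2 (0.247 ± 0.076, SE), Cdk1 (0.215 ± 0.068) and Kif11 (0.169 ± 0.055) came next after Ccnd1, with limma-voom adjusted p of 0.161, 0.175 and 0.195. Gins2 alone of the 12 sloped down, at -0.107 ± 0.047. Without female BPA 2 the median slope of the mitosis genes was 0.08, and without female BPA 4 that of the S phase genes was 0.02. With the astrocyte and microglia scores as further covariates 6 members were called, Aurkb, Ccnd1, Cdk1, Cenpf, Rrm2 and Ube2c, along with 586 genes in all. As a description over 16 libraries, the mitosis mean correlated with the precursor score at r = 0.57 (rho 0.49), and at 0.35 without female BPA 2 and 4, the libraries farthest from the median score. The S phase mean had r = 0.56 (rho 0.52), and 0.41 without them. The S phase mean and the mitosis mean correlated at r = 0.88 (rho 0.92), and at 0.87 without female BPA 2 and 3.

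Against the score of 18 myelinating markers the slopes were negative. Mki67 fell by 0.238 ± 0.065 log2 units per SD of the score (SE), with limma-voom adjusted p = 0.0459. Cdk1 fell by 0.233 ± 0.063 (adjusted p = 0.0448), Ccnb2 by 0.228 ± 0.056 (adjusted p = 0.0342) and Kif11 by 0.192 ± 0.047 (adjusted p = 0.0342), in the same limma-voom fit. These 4 were the members called, where 5.43% of tested genes were, 2.89% with a negative slope and 2.53% with a positive slope. At an unadjusted p under 0.05 it was 18 members, against 24.5%. All 22 mitosis genes had a negative slope, with a median of -0.17, as had 12 of 16 S phase genes, with a median of -0.05. Markers of other cells had lower levels with this score too, and their part in these slopes was not tested. The slope was negative in 12 of 13 astrocyte markers (median -0.369, 12 with an unadjusted p under 0.05) and in 15 of 15 microglia markers (median -0.229, 2 with an unadjusted p under 0.05), and none of either was called. Called lower were 4 of 17 precursor, 2 of 10 neuron and 1 of 7 neuroblast markers. The 4 calls of members rest on few libraries: limma-trend kept Kif11 alone, none was kept with no filter on low counts, and no member was called without female BPA 1, without female BPA 3, without female control 3, without male BPA 2 or without male BPA 4. It was 1 member without female BPA 2 or without female BPA 4, 2 without female control 4 or without male control 4, 7 without male BPA 1, 8 without male control 3 and 10 without male BPA 3. Over these fits the slopes stayed negative, from -0.28 to -0.193 for Mki67, -0.289 to -0.201 for Cdk1, -0.256 to -0.19 for Ccnb2 and -0.209 to -0.146 for Kif11. Median-of-ratios size factors and a stricter filter on low counts each gave 6 members called, these 4 with Ccna2 and Cenpf. With the replicate number added to the fit, 0 members and 0 genes were called on this score. The mitosis mean and the myelinating score correlated at r = -0.67 (rho -0.63) over 16 libraries, and at -0.55 without male BPA 2 and female BPA 2. Mbp, a major myelin protein gene, ran from 16600 to 18800 CPM in BPA females, 15500 to 19600 CPM in control females, 13000 to 19900 CPM in BPA males and 16400 to 19800 CPM in control males. Among genes outside the 39, Ccnd2, Ccnd3, Cdk2, Cdca2, Espl1, Cdc25b and Gtse1 were called with negative slopes, from -0.305 (Gtse1) to -0.136 (Cdk2). Anln, a scaffold protein of cytokinesis with a mean of 267 CPM here, was called with a positive slope of 0.171 ± 0.034. Each of these 8 calls was lost without male BPA 2.

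**Figure D5:**
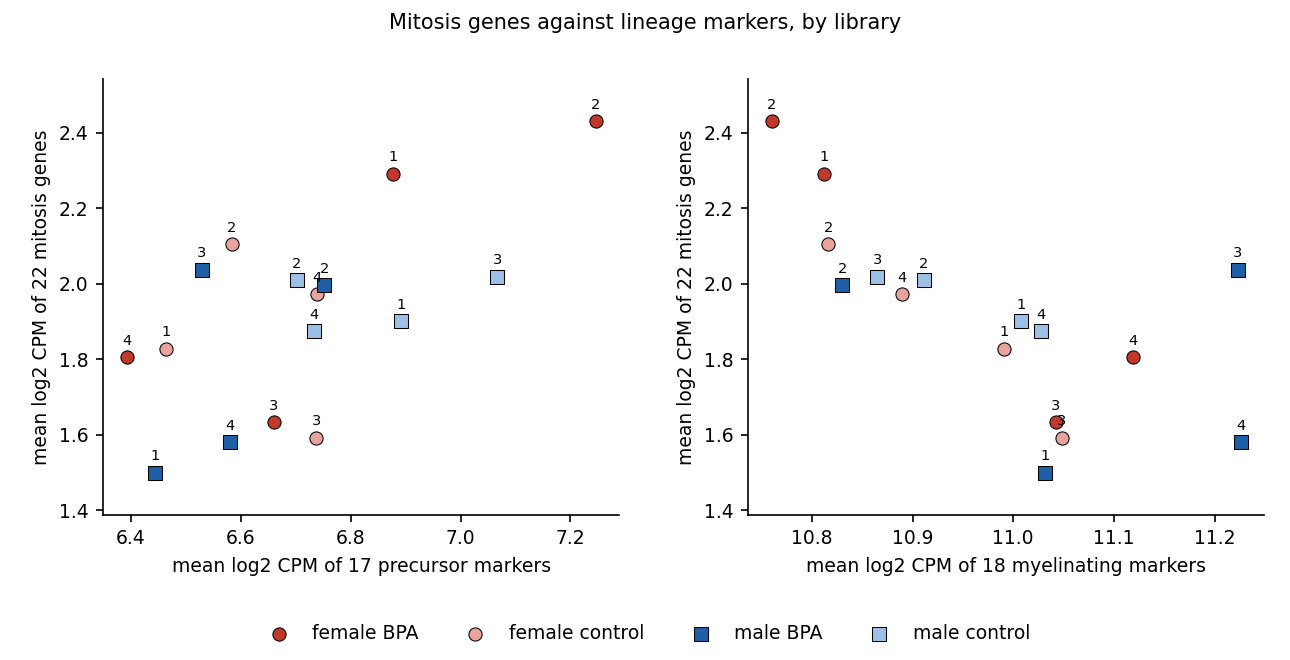
Mean log2 CPM of the 22 mitosis genes against that of 17 precursor markers (left, r = 0.57) and 18 myelinating markers (right, r = -0.67), by library, numbered within groups; r is with group means taken out, the points are the values before that. Female BPA 2 is highest on both vertical axes and the richest in precursor markers, and male BPA 3 lies above the other libraries rich in myelinating markers.

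Markers of some other cell types varied with the mitosis and S phase genes as well, and their part in these values was not tested. No member was called on the committed and newly formed score (0.545% of tested genes called, 0.502% with a positive and 0.0428% with a negative slope) or the microglia score (3.12%, 3.05% positive and 0.0612% negative). Nor was any on the astrocyte score (15.1%, 11.5% positive and 3.59% negative) or the endothelial score (8.94%, 8.27% positive and 0.667% negative). At an unadjusted p under 0.05 these held 2 (all tested genes, 8.59%), 7 (9.52%), 1 (27.7%) and 0 members (21%), and limma-trend called 0 members on each. On the microglia score, whose cells also divide in the young brain, 22 of 22 mitosis genes had a positive slope with a median of 0.10. The smallest p was that of Top2a, at 0.188 ± 0.058 (SE), with limma-voom adjusted p = 0.142, and it was called without female BPA 2. All 15 microglia markers averaged above 1 CPM, and their score ran from 5.74 to 6.91 in BPA females, 5.33 to 6.6 in control females, 5.13 to 6.09 in BPA males and 4.88 to 6.15 in control males. The mitosis mean correlated with the microglia score at r = 0.48 (rho 0.51), with the neuroblast score at 0.61 (rho 0.67) and with the neuron score at 0.58 (rho 0.51), each over 16 libraries. Without the pair of libraries farthest from the median of each score, r was 0.42, 0.53 and 0.39. The S phase mean correlated with the microglia score at r = 0.6 (rho 0.59), above its r of 0.56 with the precursor score. With the neuroblast score it had 0.5 (rho 0.61) and with the neuron score 0.43 (rho 0.47). Without such a pair, these 3 values were 0.49, 0.51 and 0.31. The score of 7 neuroblast markers ran from 2.25 to 2.57 in BPA females, 2.06 to 2.77 in control females, 1.67 to 2.5 in BPA males and 1.96 to 2.36 in control males, with Eomes under 1 CPM. Of 11 neuron markers, Rbfox3, Slc17a7, Gad2 and Nefl averaged under 1 CPM.

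A wider list of 111 other cell cycle genes, of which 108 were tested, gave 0 called genes in each BPA comparison by limma-voom. Among all tested genes limma-trend called 0 in females, 3 in males and 3 over both sexes. At an unadjusted p under 0.05 it was 6 genes in females (5.56% of the list, against 4.55% of all tested genes), 4 in males (3.70%, against 7.96%) and 4 over both sexes (3.70%, against 7.69%). Their medians leaned as those of the 39 did, with 0.05 in females and -0.07 in males. The 49 tested mitosis genes of the list had medians of 0.12 in females and -0.11 in males, and the 29 replication genes -0.02 and -0.04. Gmnn (geminin), which blocks relicensing by binding Cdt1, averaged 3.35 ± 1.21 CPM in BPA females and 5.29 ± 0.524 CPM in control females (SD, n = 4 each). In males it averaged 2.97 ± 1.06 CPM under BPA and 4.54 ± 1 CPM in controls (SD, n = 4 each). The groups of Gmnn overlapped in both sexes, and its log2 fold change over both sexes was -0.69 ± 0.18 (SE), unadjusted p = 0.00191 and limma-voom adjusted p = 0.285. Mad2l1, a checkpoint protein, had 0.33 ± 0.13 over both sexes (limma-voom adjusted p = 0.535). In females, Orc1, of the origin recognition complex, had 0.74 ± 0.29 (limma-voom adjusted p = 0.999). In males, Lmnb1, the nuclear lamin B1, had -0.35 ± 0.14 (limma-voom adjusted p = 0.547). E2f8, a repressor of the E2F family, had a female minus male difference of 0.58 ± 0.20 (limma-voom adjusted p = 0.999). The 6 tested Cdk inhibitors, among them Cdkn1b (p27), which holds oligodendrocyte precursors out of the cycle, had log2 fold changes from -0.12 to 0.15 in females and from -0.21 to 0.10 in males.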

How the data were processed

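RNA-seq libraries of O4-sorted brain cells were made from 100 ng of total RNA with a stranded poly(A) kit, per the labels' protocols. The deposited table holds raw counts per gene, counts divided by size factors and those values per kb of median transcript length, per the labels. The submitters' processing notes name bcl2fastq 2.20.0.422, STAR 2.5.3a, HTSeq 0.6.1p1, DESeq2 1.16.1 and build mm39. The counts as deposited were filtered (at least 10 counts in about the smallest group and 15 in all, which kept 99.947% of counts) and scaled by trimmed mean of M values. limma-voom (limma 3.58.1, R 4.3.3) was fitted to all 16339 genes with 4 group means and 12 residual degrees of freedom; adjusted p-values are Benjamini-Hochberg values over all of these genes (threshold 0.05). It stands in for the quasi-likelihood count test that was planned, because the unit check could not read the table's columns as counts. The fit was tested on simulated data with known changes. Score slopes used mean log2 CPM (prior count 2) of each marker list, scaled to the SD within groups. Correlations of scores and genes have group means taken out. Libraries held 23603816 to 42575326 counts, so that 3 counts, the limit a count of 0 allows, equal 0.0707 to 0.127 CPM. Such limits cover counting error only. No pair of replicates agreed within sampling noise. The members and gene lists were chosen with earlier results of these data known. Members given in full were the 2 of highest level in each role and, in each comparison, the 3 of smallest p. Alternatives were another scaling, limma-trend, 2 other filters, a replicate block, separate sexes, marker covariates, Pdgfra as the score, and leaving out libraries.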

Additional observations from a re-analysis of the deposited data

Results flagged for a closer look

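In 5 of 136 checks of a gene or score within a group (3.68%, where chance gives about 5%), 1 library lay far from the other 3. Ccnd1 had 22.48 CPM in female control 1, against 29.05 to 29.91 CPM in the other control females. Pcna had 32.47 CPM in that same library, against 23.09 to 24.61 CPM in the others. Aurka had 3.243 CPM in female control 2, against 2.349 to 2.412 CPM in the other control females. Mcm3 had 6.313 CPM in male control 1, against 6.936 to 6.974 CPM in the other control males. The microglia score was 6.912 in female BPA 1, against 5.742 to 5.94 in the other BPA females. For no member did BPA and control libraries separate in opposite directions in the sexes.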

How the results depend on the processing

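None of the 39 members was called for BPA or sex under any alternative run. Genes called in males were 3 with limma-trend, 2 with no filter, 4 with males alone, 0 with the precursor covariate and 0 without male BPA 2 and female BPA 1. In females they were 2 with no filter and 1 with females alone. Over both sexes it was 0 with a replicate block, 0 after stricter filtering and 0 without male BPA 2 and female BPA 1. With the precursor covariate the log2 fold change of Mki67 in males was 0.07, and that of Ccnd1 was -0.093 in females, 0.016 in males and -0.11 for their difference. Without male BPA 2 and female BPA 1, Ccnd1 in females was -0.009 and Mki67 over both sexes -0.122, and slope calls were 300 genes (precursor), 3 genes and 0 members (myelinating), 499 (astrocyte) and 184 (endothelial). Myelinating members called were 1 with limma-trend, 0 with no filter, 6 with median-of-ratios size factors and 6 after stricter filtering. With astrocyte and microglia covariates the precursor slope gave 586 genes and 6 members. Whether replicate numbers pair the libraries could not be settled. Between BPA and control of a sex, same-numbered deviations from group means correlated at -0.104 to 0.231, over 0.1 in 3 of 8 pairs. Different-numbered ones correlated at -0.262 to 0.171, a range that overlaps. With the replicate block, slope calls were 57 genes and 0 members (precursor), 49 genes (committed), 0 genes and 0 members (myelinating), 318 (microglia) and 1391 (astrocyte). Leaving out 1 library at a time, genes called ran from 0 to 3 in males, 0 to 5 over both sexes, 0 to 3 for the difference, 4 to 9 between control sexes and 3 to 21 between BPA sexes. Slope calls ran from 2 to 311 genes and 0 to 1 members (precursor), 0 to 149 genes (committed), 12 to 1431 genes and 0 to 10 members (myelinating), 335 to 544 genes and 0 to 1 members (microglia), 511 to 2879 (astrocyte) and 198 to 1740 (endothelial). Without male BPA 2 they were 12 (myelinating), 511 (astrocyte) and 198 (endothelial), and without female BPA 2 they were 2 (precursor). Ccnd1 in females ran from -0.021 to 0.252 and Mki67 over both sexes from -0.05 to 0.166. The causes were not tested. The DESeq2 alternative was not run, since the unit check could not read the table's columns. The raw columns hold non-negative whole numbers. Divided by size factors, they matched the authors' normalized counts within 0.000474 in every library.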
